A study of Mus musculus with 10 samples.

Results

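Control plasmids of 2 kinds were compared in Neuro2a, a mouse neuroblastoma cell line: an empty form of dCas9 and the red fluorescent protein mCherry. The members are the 3 libraries labelled dCas9-empty and the 2 labelled mCherry, which make 5 of the 10 libraries of a study of repressors of SCN9A, the gene of the sodium channel NaV1.7. They were taken by group label, with every mouse gene row of the unstranded counts. The other 5 libraries, 3 with dCas9 directed at SCN9A (dCas9-SCN9A) and 2 with a zinc-finger protein directed at it (ZF-SCN9A), serve below only to ask whether a difference between the controls is also present between the repressor groups. All 4 groups are labelled wild-type and received plasmid by lipid transfection. Per the labels' protocols, 0.5 μg of each plasmid went in with 2 μL of Lipofectamine 2000, the medium was changed after 24 h, and the plates stood for 72 h. What dCas9-empty lacks is not given in the sources used here, and neither is the seeding density of each group, which the protocol gives as 100000 or 200000 cells per well. No label ties the replicates to cultures of their own, so each p-value weighs a difference against the spread of these libraries alone, and that spread may be technical. Plasmid, depth and anything else that set the dCas9 libraries apart from the mCherry and zinc-finger libraries cannot be told apart by this design.

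Neuro2a cells derive from a tumour of the sympathoadrenal lineage, the neural crest branch that forms sympathetic neurons and the chromaffin cells of the adrenal medulla. Cells of this lineage are specified by the transcription factors Phox2a, Hand2 and Gata3, and they make catecholamines with the enzymes Th, Ddc and Dbh. dCas9 is a Cas9 whose cutting activity has been removed by mutation, and it still binds DNA when given a guide RNA. Transfected plasmid DNA can be sensed in the cytosol through the enzyme cGAS and its partner STING, and RNA through the sensors RIG-I (Ddx58) and MDA5 (Ifih1). Both routes can raise type I interferon, which acts through transcription factors such as Stat2 and Irf9 to switch on a large set of interferon-stimulated genes.

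Sequencing depth, as the sum of gene counts, was 17770383 to 18984566 in dCas9-empty and 6588126 and 7478956 in mCherry. Replicates of a group had Pearson correlations of log2 values of 0.993 to 0.997 across genes, and libraries of different groups 0.980 to 0.984. Genes are not independent replicates, and in every pair the counts differed beyond sampling noise (chi-square test across genes). Of 10 library measures, multimapping reads made 8.21% ± 0.19 of listed reads in dCas9-empty (SD, n = 3) and 6.65% ± 0.05 in mCherry (SD, n = 2), with no overlap. The 100 most abundant genes took 17.4% ± 0.34 and 15.0% ± 0.09 of gene counts, again with no overlap. An exact two-sided permutation test of 3 against 2 libraries has 10 arrangements and cannot go below p = 0.2, which was the value for both measures (0.333 after Benjamini-Hochberg adjustment over the 10). The share of mitochondrial counts overlapped between groups, at 1.94% ± 0.44 and 1.82% ± 0.15. Genes with a count numbered 23530 ± 191 and 20647 ± 283, and 20218 ± 215 and 20447 when the deeper libraries were thinned to the depth of the shallowest.

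The plasmid entries in the count tables followed the labels. The dCas9 entries dCCas9 and dNCas9 had 131446, 147989 and 155738 counts and 81844, 91766 and 87938 counts in dCas9-empty replicates 1 to 3, and 0 in both mCherry libraries. The mCherry entry had 186301 and 216581 counts in the mCherry libraries, which is 28278 and 28959 counts per 1000000 gene counts. It had 7 counts in dCas9-empty replicate 1 and 0 in replicates 2 and 3. Whether dCas9-empty carried a guide for Scn9a, the target of the repressors, is not given in the sources used here. Scn9a lies on chromosome 2 from 66480080 to 66634962 (GRCm38, minus strand). It stood at 76.6, 82.4 and 80.0 counts per 1000000 (CPM, after TMM scaling) in dCas9-empty and at 59.5 and 53.8 CPM in mCherry. The controls thus did not overlap for the target gene itself, and the log2 fold change of dCas9-empty against mCherry was 0.50 ± 0.08 (SE), with adjusted p = 1.2e-05. Every adjusted p-value comes from the quasi-likelihood test of edgeR, adjusted over all tested genes by the Benjamini-Hochberg method, and a gene with an adjusted p under 0.05 is called changed.

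A set of liver-made transcripts set the groups apart before any test. Alb, which encodes serum albumin, had 1685, 470 and 550 counts in dCas9-empty replicates 1 to 3, or 93.9, 24.8 and 31.0 per 1000000 gene counts. It had 0 counts in both mCherry libraries, which allows up to 0.455 and 0.401 on that scale. Over a list of 50 hepatocyte genes the summed level was 303, 110 and 126 on the same scale in dCas9-empty and 59.3 and 47.9 in mCherry. Most of the mCherry sum is Ass1, an enzyme of arginine synthesis singled out after its values were seen, at 33.6 to 36.0 in dCas9-empty and 46.8 and 40.0 in mCherry, and without it the sums are 267, 76.0 and 92.5 against 12.6 and 7.89. In 44 of the 50 the lowest dCas9-empty library was above the highest mCherry library, 31 were at 0 in both mCherry libraries, and in 49 replicate 1 was the highest of the 3 dCas9-empty libraries. Over all tested genes, which include 37 of the 50, the groups did not overlap in 59.8%, counted in either direction and in CPM. The same genes were present in the dCas9-SCN9A libraries, at a summed 270, 78.6 and 91.5 without Ass1, with replicate 1 again highest, and at 11.9 and 13.6 in ZF-SCN9A, where Alb had 0 counts. The list was chosen after these values were seen, so it carries no test. Of the genes tested below, 52 had 0 counts in both mCherry libraries, and 22 of these are on the hepatocyte list. The part of such RNA in the results was not tested. Without dCas9-empty replicate 1 the comparison of controls called 5452 genes, against 5674 with it.

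The baseline transcriptome was led by genes of translation, respiration and the cytoskeleton. Of 55401 listed genes, 12394 were at 1 CPM or more in all 5 libraries and 26138 had no count in any of them. Per transcript length (TPM, transcripts per 1000000, from union exon length), the 15 most abundant protein-coding genes were 5 mitochondrial genes (mt-Cytb, mt-Co1, mt-Nd1, mt-Nd2 and mt-Nd5), the elongation factors Eef1a1 and Eef2, the ribosomal proteins Rplp1, Rplp0, Rpl8, Rps15 and Rpl4, the chaperone Hsp90ab1, beta-actin Actb and the cytokine Mif. Eef1a1, which brings aminoacyl-tRNA to the ribosome, stood at 13790, 14104 and 13330 TPM in dCas9-empty and 11898 and 11920 TPM in mCherry. mt-Cytb, which encodes cytochrome b of respiratory complex III, ranged from 12840 to 19956 TPM in dCas9-empty and stood at 14487 and 13484 TPM in mCherry, so the groups overlapped. Mitochondrial genes have near-identical copies in the nuclear genome, which leaves their counts uncertain.

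The neuronal and sympathoadrenal labels of the line held in both groups. The leading neuronal gene per length was Prph, which encodes peripherin, an intermediate filament of peripheral neurons, at 2879, 2958 and 2746 TPM in dCas9-empty and 2459 and 2934 TPM in mCherry. Tubb3, neuronal tubulin, ranged from 1270 to 1513 TPM over the 5 libraries with no separation of the groups. Chgb, a secretory granule protein, Ret, the receptor of the GDNF family, and the transcription factors Hand2 and Phox2a led the sympathoadrenal list, with Hand2 at 604 to 631 TPM in dCas9-empty and 516 and 561 TPM in mCherry. The antisense gene Hand2os1 overlaps 19.6% of the exonic sequence of Hand2, and these counts are not stranded. The noradrenaline transporter Slc6a2, a gene of the lineage, was near 0 in all 5 libraries (at most 0.0576 CPM). Among markers of other cells, Fbln1, on the fibroblast list, stood at 535 to 576 TPM, and Pmp22, on the glial list, at 351 to 377 TPM, in all 5 libraries. Summed over their 10 members each, immune markers stood at 1.03 to 2.83 CPM and epithelial markers at 1.47 to 3.09 CPM. The endothelial markers summed to 135, 159 and 142 CPM in dCas9-empty and 74.2 and 87.8 CPM in mCherry. Nearly all of that came from Vwf, Egfl7 and Pecam1, while the defining markers Cdh5, Kdr and Cldn5 were at or below 1.46 CPM in each library. Xist, the RNA that coats an inactive X chromosome, stood at 332, 386 and 480 CPM in dCas9-empty and 470 and 481 CPM in mCherry, and no Y-linked gene of the list was above 0.229 CPM.

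Of 15204 genes tested, 5674 were called between the 2 control groups (37.3%), 3065 higher in dCas9-empty (20.2%) and 2609 lower (17.2%). Most differences were small. The median absolute log2 fold change of called genes was 0.45, and 1022 genes (6.72%) were called with a difference of at least 2-fold, 574 higher (3.78%) and 448 lower (2.95%). Libraries of the groups did not overlap in 59.8% of the tested genes. Scaling decides part of the split: with library totals alone in place of TMM factors the median of all genes moved from 0.01 to -0.09, and 2199 genes were called higher and 3801 lower. Without mCherry replicate 1 the count fell to 3585, with 1986 higher and 1599 lower.

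Sgpp1, a phosphatase that degrades the lipid messenger sphingosine-1-phosphate, had the smallest p. It lies on chromosome 12 from 75714249 to 75735729 and stood at 144, 138 and 145 CPM in dCas9-empty and 29.4 and 28.8 CPM in mCherry. The groups lay far apart and the log2 fold change was 2.29 ± 0.08 (SE), adjusted p = 4.48e-18. Next came Tmsb10, which binds actin monomers, at 565, 551 and 514 CPM against 189 and 163 CPM (log2 fold change 1.63 ± 0.07), and the granule protein Chgb at 1575, 1605 and 1467 CPM against 669 and 683 CPM (1.20 ± 0.06). Dkk1, a secreted inhibitor of Wnt signalling, stood at 497, 493 and 481 CPM against 222 and 195 CPM. Igfbp7, a secreted binding protein of insulin-like growth factors, and Dusp4, a phosphatase of MAP kinases, complete the 6 genes of smallest p on the higher side, with log2 fold changes of 2.01 ± 0.10 and 1.10 ± 0.06.

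On the lower side the smallest p belonged to Tanc2, a scaffold of synapses, at 112, 103 and 119 CPM in dCas9-empty and 263 and 251 CPM in mCherry (log2 fold change -1.21 ± 0.06, adjusted p = 5.11e-14). Polr2a, the largest subunit of RNA polymerase II, stood at 256, 227 and 261 CPM against 464 and 473 CPM (-0.92 ± 0.06). Nes, which encodes the progenitor filament nestin, and the adhesion molecule Mcam were lower by 1.14 and 1.12 on the log2 scale, each at 35.8 to 58.7 CPM in dCas9-empty and 80.5 to 118 CPM in mCherry. Apol9a and Apol9b, apolipoprotein L genes on chromosome 15 that interferon can raise, stood at 9.22, 12.9 and 11.2 CPM against 38.6 and 42.2 CPM and at 5.04, 6.24 and 6.56 CPM against 23.8 and 23 CPM. Both are near-identical copies of each other, so their separate values are uncertain.

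**Figure D1:**
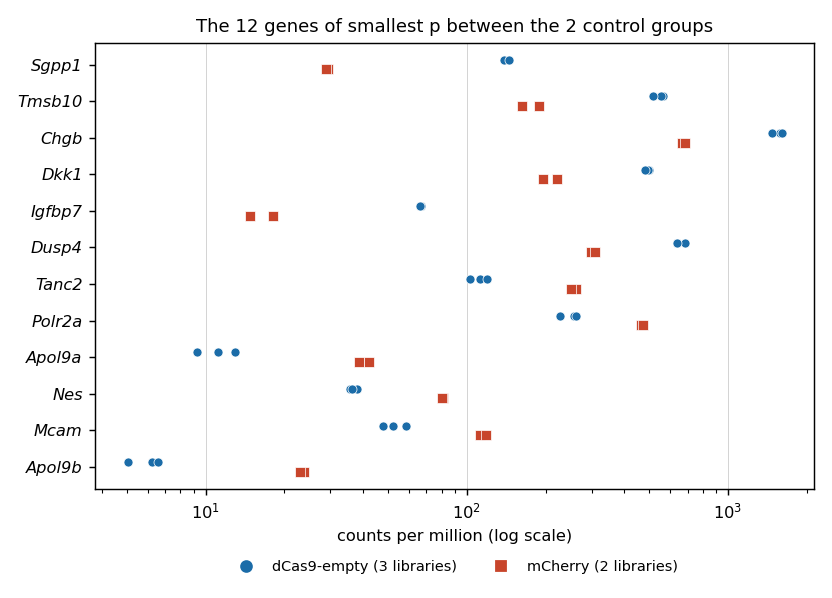
Level of the 12 genes of smallest p in each control library, in CPM on a log axis, with dCas9-empty libraries as circles (n = 3) and mCherry libraries as squares (n = 2). The libraries of both groups do not overlap in any of the 12 genes, and the gap is widest for Sgpp1, at 138 to 145 against 28.8 and 29.4 CPM.

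Among genes called at a mean of at least 5 CPM in the higher group with no overlap of groups, the protein-coding gene of largest rise was Efhc2, a microtubule-associated protein gene on chromosome X, at 10.7, 12.8 and 10.5 CPM against 0.729 and 1.80 CPM (log2 fold change 3.12 ± 0.28). Ndufa4l2, a hypoxia-responsive mitochondrial protein, stood at 33.7, 36.0 and 29.5 CPM against 3.50 and 7.07 CPM (2.62 ± 0.19). The orphan receptor Gpr12 and the gut peptide gene Pyy followed, at 2.45 ± 0.20 and 2.56 ± 0.33. Of the 12 largest rises within those limits, 5 were processed pseudogenes and 3 mitochondrial genes, both classes with near-identical copies elsewhere in the genome. Alb lay outside these limits because it was not called (adjusted p = 0.177). The largest falls included the adhesion receptor gene Adgrf4 at 2.71 to 3.72 CPM against 14.4 CPM in both mCherry libraries (-2.14 ± 0.19). The metallothionein Mt1, which binds zinc and copper, stood at 1.83, 1.30 and 1.38 CPM against 5.83 and 6.30 CPM (-2.01 ± 0.29). The cytoskeletal genes Filip1l and Eml1 were lower to a like extent, at -2.01 ± 0.21 and -1.99 ± 0.21.

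Interferon-stimulated genes were the list with the lowest median. Their promoters often carry the interferon-stimulated response element, bound by a complex that holds Stat2 and Irf9. The 4 promoters printed here belong to the members called lower with the largest falls among those with a match to its core in the last 120 bases before the RefSeq start (GRCm38.p6). The letters come from the RefSeq promoter table, and capitals mark GAAANNGAAA or its reverse complement TTTCNNTTTC, where N is any base; both strands were searched and overlapping matches were counted. The motif was chosen with the values known. Coordinates are Gbp3 chr3:142559924-142560043 on the plus strand, Oas3 chr5:120777660-120777779, Oas1a chr5:120907526-120907645 and Isg15 chr4:156200819-156200938, these 3 on the minus strand, and each line reads 5′ to 3′ along the gene's strand.
Gbp3: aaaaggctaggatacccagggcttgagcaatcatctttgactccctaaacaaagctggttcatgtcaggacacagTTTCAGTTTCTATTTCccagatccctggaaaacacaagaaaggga
Oas3: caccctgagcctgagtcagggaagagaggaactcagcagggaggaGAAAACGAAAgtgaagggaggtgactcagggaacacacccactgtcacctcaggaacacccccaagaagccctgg
Oas1a: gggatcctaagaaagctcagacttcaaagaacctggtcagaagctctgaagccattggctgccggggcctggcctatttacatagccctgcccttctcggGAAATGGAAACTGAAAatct
Isg15: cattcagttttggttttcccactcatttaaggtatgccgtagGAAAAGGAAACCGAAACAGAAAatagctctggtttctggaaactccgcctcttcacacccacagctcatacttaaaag
The Gbp3 and Oas1a stretches hold 2 overlapping matches each, the Isg15 stretch 3 and the Oas3 stretch 1. Within the 250 bases before the RefSeq start, 10 of the 23 tested members with a promoter in the table held a match (43.5%), and 9 of the 19 called lower (47.4%). Over all tested genes with a promoter there, 316 of 10531 did (3%). A match is a description of these letters and not a bound site.

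All 40 listed interferon-stimulated genes were found and 35 were tested. None was called higher and 26 were called lower in dCas9-empty, where 17.2% of all tested genes were called lower. The median log2 fold change was -0.93, against 0.01 over all genes, and -1.02 with library totals alone. In 29 of the 35 the groups did not overlap, against 59.8% of all genes. Summed over the list, the level was 542, 706 and 634 CPM in dCas9-empty and 1007 and 1012 CPM in mCherry. Levels from bulk RNA cannot tell fewer responding cells from less RNA per cell.

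All 6 tested members of the oligoadenylate synthetase family, some of whose enzymes activate RNase L, were called lower. Among them were Oas1a at 1.32, 3.04 and 2.65 CPM against 6.71 and 7.33 CPM (log2 fold change -1.58 ± 0.28), Oasl1 at 8.53, 9.98 and 9.44 CPM against 29.9 and 25.6 CPM (-1.57 ± 0.13), and Oas3 at 0.286 to 0.576 CPM against 1.46 and 1.41 CPM (-1.77 ± 0.54). The call of Oas3 ended without either mCherry library (adjusted p = 0.088 and 0.082). Isg15, a ubiquitin-like modifier, stood at 13.2, 14.8 and 15.4 CPM against 39.5 and 31.4 CPM (-1.28 ± 0.12, adjusted p = 2.15e-09). Usp18, the protease that removes Isg15 from proteins, was lower by 1.99 ± 0.22, and the GTPase Gbp3 by 2.21 ± 0.41 at 0.630, 0.760 and 0.633 CPM against 3.94 and 2.44 CPM. In each of these genes every dCas9-empty library was below both mCherry libraries.

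Sensors and transcription factors of the pathway were also lower. The RNA sensors Ddx58 and Ifih1 were lower by 0.93 ± 0.12 and 0.92 ± 0.21 on the log2 scale, and the transcription factors Irf7 and Irf9 by 1.46 ± 0.27 and 0.90 ± 0.16. Stat2 stood at 74.5, 81.9 and 82.0 CPM against 89.8 and 97.3 CPM (-0.24 ± 0.07, adjusted p = 0.0104). The 9 tested members that did not pass include Ifi27, the most abundant at 111, 193 and 142 CPM against 292 and 307 CPM (adjusted p = 0.0806), and Ifit1 at 4.75, 8.74 and 8.35 CPM against 20.4 and 12.1 CPM (adjusted p = 0.0526). In both the dCas9-empty libraries lay below the mCherry libraries with a wide spread within a group. Genes of this section outside the 3 largest falls (Gbp3, Usp18 and Oas3) were picked after their values were seen.

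**Figure D2:**
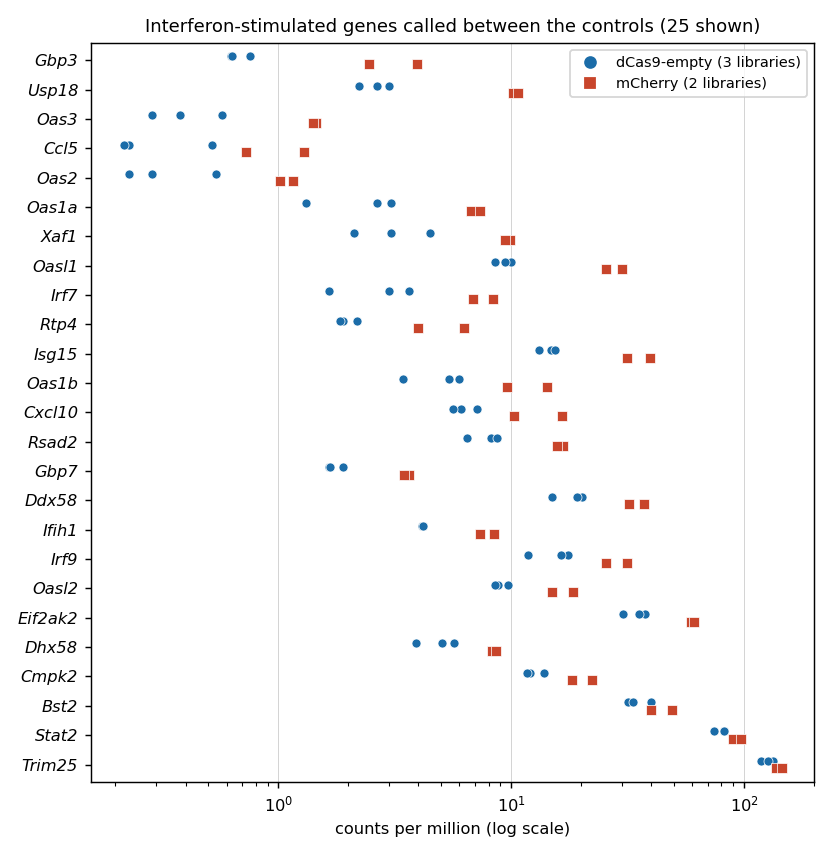
Level of 25 of the 26 called interferon-stimulated genes in each control library, in CPM on a log axis, with dCas9-empty libraries as circles (n = 3) and mCherry libraries as squares (n = 2), ordered by fold change. Gbp3 (0.630 to 0.760 against 2.44 and 3.94 CPM) is at the top with the largest fall and Trim25 (118 to 133 against 138 and 145 CPM) at the bottom with the smallest.

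Few genes of cytosolic DNA sensing were called. Of 12 tested, 1 (Xrcc5) rose and 1 fell (8.33% each), with a median of 0.02. Of all tested genes 20.2% were called higher and 17.2% lower. The sensor Cgas stood at 3.61, 5.64 and 5.01 CPM against 7.87 and 6.94 CPM (log2 fold change -0.63 ± 0.22, adjusted p = 0.0246), and STING (Tmem173) at 18.2, 18.7 and 18.8 CPM against 19.4 and 17.2 CPM, where the groups overlapped. The Cgas call ended without dCas9-empty replicate 1 (adjusted p = 0.083) or either mCherry library (0.18 and 0.075), and the Xrcc5 call without dCas9-empty replicate 1 or 2 or mCherry replicate 2 (0.13, 0.066 and 0.42). Among NF-kB targets 4 of 11 rose (36.4%) and 2 fell (18.2%, near the share of all tested genes). Their median of 0.08 turned to -0.01 under library totals alone or without dCas9-empty replicate 1. The inhibitors Tnfaip3 and Nfkbia, which act in feedback on NF-kB, were higher by 1.54 ± 0.16 and 1.17 ± 0.08, with Nfkbia at 134, 157 and 156 CPM against 68.2 and 65.1 CPM. The cytokine Csf1 was lower by 0.78 ± 0.15. Class I antigen presentation genes, some of which interferon also raises, were called higher in 9 of 15 cases (60%) and lower in none. Their median was 0.27. With library totals alone 4 of them were called higher. The heavy chain gene H2-D1 stood at 410, 463 and 415 CPM against 326 and 365 CPM (0.31 ± 0.06) and the light chain gene B2m at 201, 217 and 205 CPM against 174 and 178 CPM (0.24 ± 0.06), with no overlap in either.

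Most genes of sympathoadrenal identity were higher in dCas9-empty. Of 23 tested, 14 passed as higher (60.9%) and 2 as lower (8.70%), with a median log2 fold change of 0.57. Of all tested genes 20.2% passed as higher and 17.2% as lower. Of the catecholamine enzymes, Ddc stood at 21.3, 20.9 and 20.3 CPM against 5.39 and 6.30 CPM (1.83 ± 0.16). Th stood at 37.3, 37.8 and 34.9 CPM against 17.6 and 16.7 CPM (1.10 ± 0.11), and Dbh is not reported here. Slc18a2, which loads monoamines into vesicles, was higher by 1.05 ± 0.08. The oncogene Mycn, amplified in many human neuroblastomas, stood at 146, 151 and 146 CPM against 64.4 and 60.6 CPM (1.24 ± 0.07), and Ret at 1809, 1810 and 1654 CPM against 829 and 905 CPM (1.02 ± 0.06). The lineage factor Phox2a was higher by 0.62 ± 0.06. The 2 members called lower were the transcription factors Gata3, at 17.9, 18.8 and 19.6 CPM against 25.9 and 23.8 CPM (-0.40 ± 0.11), and Sox11 (-0.36 ± 0.07). The Gata3 call ended without mCherry replicate 1 (adjusted p = 0.076). Gata2 was not called and overlapped between groups, at 259, 268 and 290 CPM against 278 and 258 CPM (0.02 ± 0.06). Th, Slc18a2 and Gata2 were picked after their values were seen.

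Among neuronal structural and synaptic genes 5 of 25 rose and 5 fell, shares near the 20.2% and 17.2% of all tested genes, with a median of 0.03 that turned to -0.07 with library totals alone. Tau (Mapt) stood at 467, 500 and 493 CPM against 346 and 389 CPM (0.40 ± 0.06) and the vesicle calcium sensor Syt1 at 350, 356 and 351 CPM against 266 and 249 CPM (0.45 ± 0.06). Nefh, the heavy neurofilament, went the other way, at 97.8, 91.1 and 86.2 CPM against 152 and 152 CPM (-0.73 ± 0.07), as did Map1b (-0.28 ± 0.06), a microtubule-binding protein. Of 10 sodium channel genes tested, 2 were called in each direction, again near the shares of all genes, and none was called lower without mCherry replicate 1. Per length, Scn3b was the most abundant, at a mean of 39.7 TPM in dCas9-empty and 43.8 TPM in mCherry, and it overlapped between groups at 62.3, 67.8 and 65.9 CPM against 63.9 and 65.8 CPM. Scn9a was the called member of largest rise. Scn8a, at 66.6, 73.1 and 83.8 CPM against 69.2 and 68.3 CPM, overlapped between groups. Scn7a was called lower at 0.597 to 0.921 CPM against 2.62 and 1.29 CPM, and its call ended without dCas9-empty replicate 2 or mCherry replicate 1 (adjusted p = 0.077 and 0.42).

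Feedback genes of the MAP kinase pathway, in which growth factor receptors such as Ret signal through ERK, were among the higher genes. Of 28 immediate early and feedback genes tested, 14 rose (50%) and 3 fell (10.7%) by the test, with a median log2 fold change of 0.32. Of all tested genes 20.2% rose and 17.2% fell by the test. The ERK phosphatase Dusp6 stood at 411, 446 and 420 CPM against 207 and 169 CPM (log2 fold change 1.18 ± 0.07), beside Dusp4 at 636, 684 and 638 CPM against 299 and 309 CPM. The stress-induced factor Atf3 was lower, at 10.8, 10.5 and 10.7 CPM against 25.5 and 29.1 CPM (-1.36 ± 0.12), and Jun was lower by 0.29 ± 0.07. Targets of the TGF-beta and BMP pathways were mixed: Id3, Tgfb1 and Id1 were higher by 1.51 ± 0.12, 1.29 ± 0.12 and 0.83 ± 0.11, and 4 of 13 members of the YAP and TGF-beta list were called higher and 1 lower (Axl, -0.75 ± 0.16).

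Hypoxia targets and glycolytic enzymes were called higher in 24 of 37 cases and lower in 1, Pfkfb4, with a median of 0.34. Ankrd37, a target of HIF-1, stood at 22.2, 23.9 and 21.5 CPM against 5.10 and 6.43 CPM (log2 fold change 1.96 ± 0.16); exons of Lrp2bp share 26.4% of its bases. Adm, which encodes adrenomedullin, stood at 32.8, 40.3 and 41.9 CPM against 9.48 and 15.0 CPM (1.63 ± 0.17), and the glucose transporter Slc2a3 at 1150, 1230 and 1070 CPM against 475 and 647 CPM (1.03 ± 0.16, adjusted p = 0.00867). mCherry replicate 1 was the lower of the pair in all 3 genes, and without it 13 of the 37 were called higher. Gapdh, at 1655, 1786 and 1510 CPM against 1363 and 1580 CPM, overlapped between groups (adjusted p = 0.0912). With library totals alone 17 were called higher. The call of Pfkfb4 ended without dCas9-empty replicate 1 or either mCherry library.

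In cholesterol synthesis 16 of 25 rose (64%) and 1 fell (4%), with a median of 0.29. Over all tested genes 20.2% were called higher and 17.2% lower. Fdft1, which makes squalene, stood at 210, 220 and 196 CPM against 127 and 132 CPM (log2 fold change 0.69 ± 0.07), with 18.3% of its exon bases shared with Ctsb. Hmgcs1, an early enzyme of the pathway, stood at 258, 271 and 259 CPM against 196 and 185 CPM (0.46 ± 0.06). In fatty acid synthesis 10 of 16 rose and 2 fell, with a median of 0.25, led among abundant genes by the desaturase Scd2 at 3594, 3685 and 3420 CPM against 2620 and 2734 CPM (0.41 ± 0.06). The fatty acid synthase gene Fasn was a called fall of small size, at 1029, 1006 and 1017 CPM against 1109 and 1156 CPM (-0.16 ± 0.05). The number of these genes called higher was 5 without mCherry replicate 1 and 5 with library totals alone, and the Fasn call ended without dCas9-empty replicate 2 or either mCherry library.

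Cytosolic ribosomal proteins were higher almost throughout, with 75 of 82 called higher (91.5%) and 1 lower (1.22%) and a median of 0.47. Over all tested genes 20.2% were called higher and 17.2% lower. Rpl39, at 252, 261 and 246 CPM against 130 and 131 CPM (log2 fold change 0.95 ± 0.06), had the largest rise, and Rpl7l1, a ribosome assembly factor, was the called fall (-0.24 ± 0.07). Of nuclear-encoded respiratory chain subunits, 53 of 74 rose and 1 fell, with a median of 0.29. Cox8a, a subunit of cytochrome c oxidase, stood at 187, 194 and 181 CPM against 90.5 and 116 CPM (0.86 ± 0.08). Both lists hold short genes, and short genes were higher in general: of the 3039 tested genes with the shortest exons 755 rose and 218 fell, with a median of 0.19, and of the 3038 with the longest 517 rose and 830 fell, with a median of -0.07. With an offset for exon length, 68 ribosomal protein genes and 36 respiratory chain genes were called higher, with medians of 0.38 and 0.20. Processed pseudogenes, a class that includes copies of ribosomal protein genes, had 323 of 949 called higher and 43 lower, with a median of 0.76, beside a larger share of multimapping reads in dCas9-empty. The part of length and of copies in these results was not tested beyond that offset.

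The mitochondrially encoded messenger RNAs split by level. The 7 abundant ones, at 382 to 8091 CPM, were not called, and mt-Co1 overlapped between groups at 4842, 6613 and 8091 CPM against 5422 and 5029 CPM. All 6 called higher were counted at low levels: mt-Co2, mt-Co3, mt-Atp6, mt-Atp8, mt-Nd3 and mt-Nd4l, at 2.18 to 27.2 CPM in dCas9-empty and at most 5.54 CPM in mCherry. mt-Co3 stood at 12.4, 15.2 and 16.1 CPM against 2.92 and 1.54 CPM (log2 fold change 2.73 ± 0.24). Without dCas9-empty replicate 1, the lowest of its group in the abundant ones, 10 of the 13 were called higher. Heat shock genes were called higher in 8 of 14 cases (57.1%) and lower in none, with a median of 0.39. Over all tested genes 20.2% were called higher and 17.2% lower. Hspa8, the constitutive HSP70 chaperone, stood at 2332, 2491 and 2270 CPM against 1342 and 1439 CPM (0.77 ± 0.06).

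Of 30 tested members of the list of ATF4 targets and amino acid response genes, 15 were called lower and 3 higher, with a median of -0.17. Atf4 itself stood at 774, 751 and 770 CPM against 931 and 980 CPM (log2 fold change -0.32 ± 0.06), and its pro-apoptotic target Ddit3 at 58.6, 63.1 and 67.0 CPM against 90.7 and 101 CPM (-0.61 ± 0.08). Atf5 went the other way, at 143, 126 and 139 CPM against 78.3 and 73.4 CPM (0.84 ± 0.07). Of 22 endoplasmic reticulum stress genes 8 were called lower and 2 higher (median -0.07), with the chaperone Hyou1 at 426, 385 and 381 CPM against 506 and 538 CPM (-0.39 ± 0.06) and the disulfide isomerase Pdia3 higher by 0.32 ± 0.06. NRF2 targets were mixed, with 6 of 21 called higher and 8 lower. The 6 became 2 without mCherry replicate 2 and 3 without mCherry replicate 1, without dCas9-empty replicate 2 or with library totals alone. Srxn1, which repairs peroxiredoxins, stood at 20.9, 20.5 and 19.9 CPM against 32.5 and 36.3 CPM (-0.75 ± 0.11). Of 18 p53 targets 3 were called higher and 4 lower, near the 20.2% and 17.2% of all tested genes. Btg2 was higher by 0.68 ± 0.13 and Aen lower by 0.48 ± 0.10.

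DNA replication genes were called lower in 12 of 35 cases (34.3%) and higher in none, with a median of -0.13. Of all tested genes 17.2% were called lower and 20.2% higher. Cdc6, which loads the replicative helicase, stood at 23.2, 18.0 and 21.9 CPM against 36.6 and 35.5 CPM (log2 fold change -0.78 ± 0.11). This count depended on single libraries, at 20 without dCas9-empty replicate 1, 5 without mCherry replicate 1 and 7 without mCherry replicate 2, and 8 lower and 2 higher without dCas9-empty replicate 2. In mitosis 4 of 30 were called lower and 2 higher, 11 lower and 2 higher without dCas9-empty replicate 1, 2 and 2 without mCherry replicate 2, and 9 and 1 with library totals alone. With all libraries the mitosis shares were 13.3% lower and 6.67% higher, both below those of all tested genes. Mki67, the proliferation marker, stood at 401, 343 and 372 CPM against 470 and 467 CPM (-0.33 ± 0.06). The cell cycle inhibitor Cdkn1b was higher, at 196, 209 and 199 CPM against 145 and 139 CPM (0.51 ± 0.06).

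Other lists held changes in both directions, where 20.2% of all tested genes were called higher and 17.2% lower. Among axon guidance genes 5 of 19 were called higher and 8 lower, or 3 and 5 without mCherry replicate 2. The netrin receptor Unc5b stood at 449, 455 and 417 CPM against 277 and 315 CPM (log2 fold change 0.57 ± 0.06) and the semaphorin receptor Nrp1 at 56.5, 44.7 and 46.6 CPM against 103 and 83.6 CPM (-0.92 ± 0.11). Among matrix and adhesion genes 6 of 20 were called higher and 5 lower (2 and 5 without mCherry replicate 1, and 3 and 5 with library totals alone), with the fibronectin receptor subunit Itga5 at 12.3, 12.5 and 13.7 CPM against 32.5 and 33.6 CPM (-1.37 ± 0.11). Imprinted genes had 6 of 21 called higher and 7 lower. The noncoding RNAs Rian and Meg3, of the Dlk1 locus on chromosome 12, were higher by 1.21 ± 0.11 and 1.01 ± 0.15, while the protein gene Dlk1 of that locus was lower at 66.6, 72.4 and 68.5 CPM against 92.7 and 115 CPM (-0.59 ± 0.08). Kcnq1ot1, a noncoding RNA antisense to Kcnq1 whose reads cannot be told apart from Kcnq1 reads without strand, stood at 3.26, 3.09 and 3.92 CPM against 11.1 and 11.6 CPM (-1.73 ± 0.20). Lysosome and autophagy genes had 13 of 28 called higher and 3 lower, with the autophagy kinase Ulk1 higher by 0.69 ± 0.08 and the cargo receptor Sqstm1 lower by 0.31 ± 0.06, with 17.3% of its exon bases shared with Mrnip. Of 5 endothelial markers tested, Vwf, Egfl7 and Pecam1 were called higher. Vwf stood at 61.6, 74.0 and 68.0 CPM against 30.8 and 33.4 CPM (1.08 ± 0.10), and the call of Pecam1 ended without mCherry replicate 1 (adjusted p = 0.31).

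**Figure D3:**
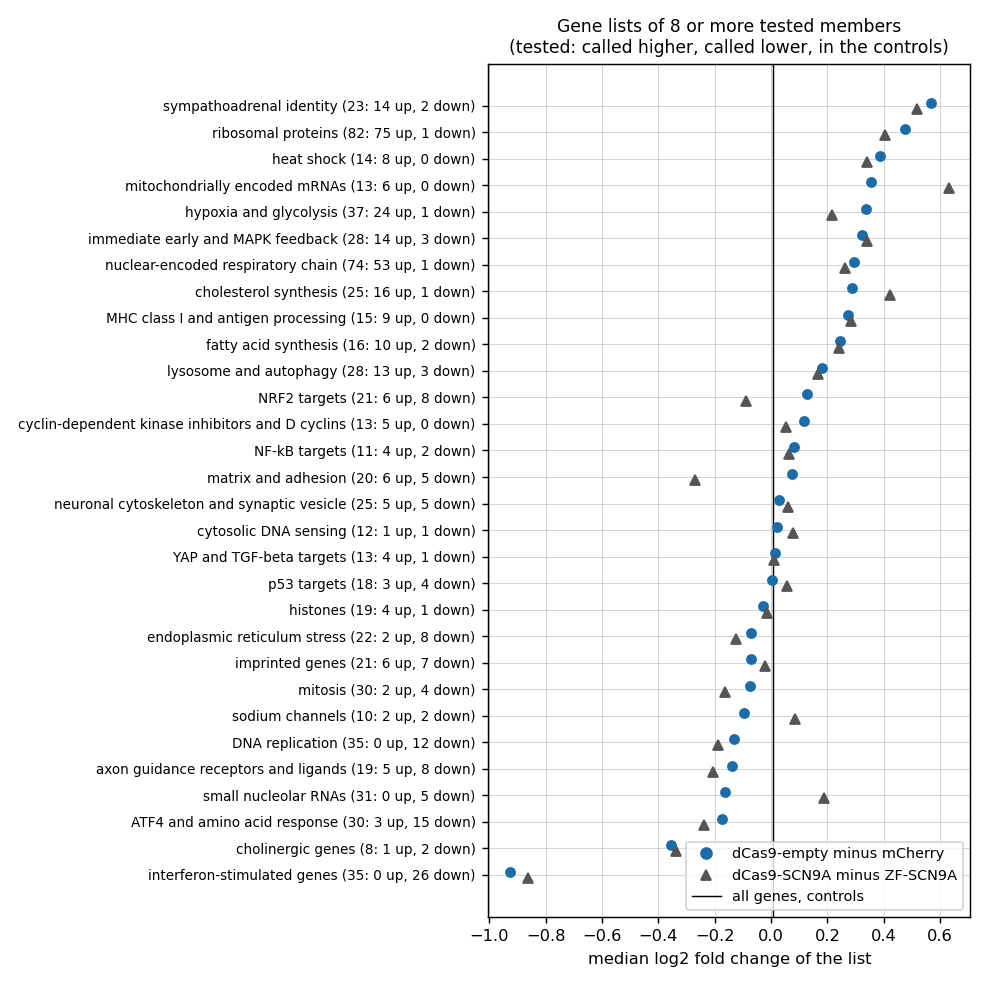
Median log2 fold change of each gene list with 8 or more tested members, for dCas9-empty minus mCherry (circles) and dCas9-SCN9A minus ZF-SCN9A (triangles), with the counts of members called higher and lower between the controls beside each name and the median of all tested genes as a vertical line. The lists run from sympathoadrenal identity at 0.57 to interferon-stimulated genes at -0.93, and the triangles lie on the same side of 0 as the circles in both of those lists. Circles and triangles lie on opposite sides of 0 for NRF2 targets, matrix and adhesion, sodium channels and small nucleolar RNAs.

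The difference was not spread evenly over chromosomes. Chromosome X had a median log2 fold change of 0.25 over 482 tested genes, with 176 called higher and 29 lower (36.5% and 6.02%, against 20.2% and 17.2% of all genes). All 10 windows of 10 Mb on X with at least 20 tested genes had a median above 0, from 0.05 to 0.49. The window from 50 to 60 Mb was the highest of the 228 windows of the genome, with 18 of its 31 genes called higher and none lower. Among protein-coding genes the X median was 0.21, with an exon-length offset 0.19, and among genes of at least 10 CPM 0.24. Chromosomes 12 and 13 had medians of 0.13 each, and the lowest were chromosomes 4 and 16 at -0.11 and -0.10. Between the repressor groups, which share no library with the controls, the X median was 0.24 and that of chromosomes 4 and 16 -0.10 each. Xist, which shares 12.6% of its exon bases with its neighbours, was not called (log2 fold change -0.25 ± 0.19, adjusted p = 0.381).

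**Figure D4:**
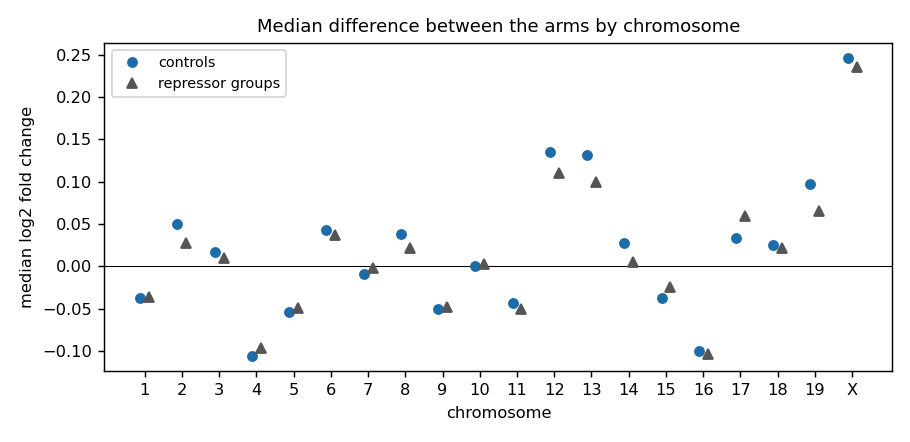
Median log2 fold change of the tested genes of each nuclear chromosome, for dCas9-empty minus mCherry (circles) and dCas9-SCN9A minus ZF-SCN9A (triangles). Chromosome X is the highest in both, at 0.25 and 0.24, and chromosomes 4 and 16 are the lowest.

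The repressor groups allow a related contrast in other libraries, without empty dCas9 or mCherry libraries and with a repressor that differs between groups. The comparison of dCas9-SCN9A against ZF-SCN9A sets deeper dCas9 libraries (15356843 to 16351528 gene counts) against shallower ones (6297752 and 4412097) once more. Both repressors are aimed at the same gene in this comparison. It called 5163 of 15132 genes (34.1%), 2736 higher (18.1%) and 2427 lower (16%). Without ZF-SCN9A replicate 1 it called 3130 and without replicate 2 3200. Of the 5580 genes called between controls and tested there, 5273 had the same direction (94.5%), 3488 were also called in it (62.5%) and 30 were called in the opposite one. Seen from the other side, 68.8% of the 5068 repressor calls tested in the controls were called in the same direction there. Across 14748 genes Pearson's r of the log2 fold changes was 0.764 and Spearman's rho 0.704, a description over genes that share libraries, depth and length. Sgpp1 stood at 131, 126 and 142 CPM in dCas9-SCN9A and 28.7 and 26.1 CPM in ZF-SCN9A, a log2 fold change of 2.27 ± 0.10 against 2.29 between controls. The interferon list had 25 of 34 called lower and 2 higher in the repressor libraries, with a median of -0.86, ribosomal proteins 71 of 82 called higher with a median of 0.40, and sympathoadrenal genes 14 of 23 with a median of 0.52. Hypoxia and glycolysis had 10 of 37 called higher there, with a median of 0.22.

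The difference between controls minus that between repressor groups was itself tested over all 10 libraries, and 143 of 15766 genes passed (0.907%), 41 higher and 102 lower. The shares were 0.26% and 0.647%. Of the 143, 88 were also called between the controls. The smallest p belonged to Git1, a scaffold of small GTPases, picked here after its values were seen. It stood at 153, 149 and 161 CPM in dCas9-empty, 184 and 183 CPM in mCherry, 158, 161 and 159 CPM in dCas9-SCN9A and 60.5 and 74.8 CPM in ZF-SCN9A, with mCherry a little above dCas9-empty and ZF-SCN9A far below dCas9-SCN9A (-1.52 ± 0.10, adjusted p = 2.23e-11). Stat2 was the interferon gene among them, with 39.1 and 37.3 CPM in ZF-SCN9A against 77.2 to 81.7 CPM in dCas9-SCN9A (-1.29 ± 0.11). Of the genes named by rule, Dusp4, Ret, Ankrd37 and Tgfb1 passed too, as did Acta2, a smooth muscle actin of the matrix list (8.59, 6.51 and 9.67 CPM in dCas9-empty, 13.7 and 14.7 CPM in mCherry). For all other tested genes the differences were not shown to be unequal, which does not show that they were equal.

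**Figure D5:**
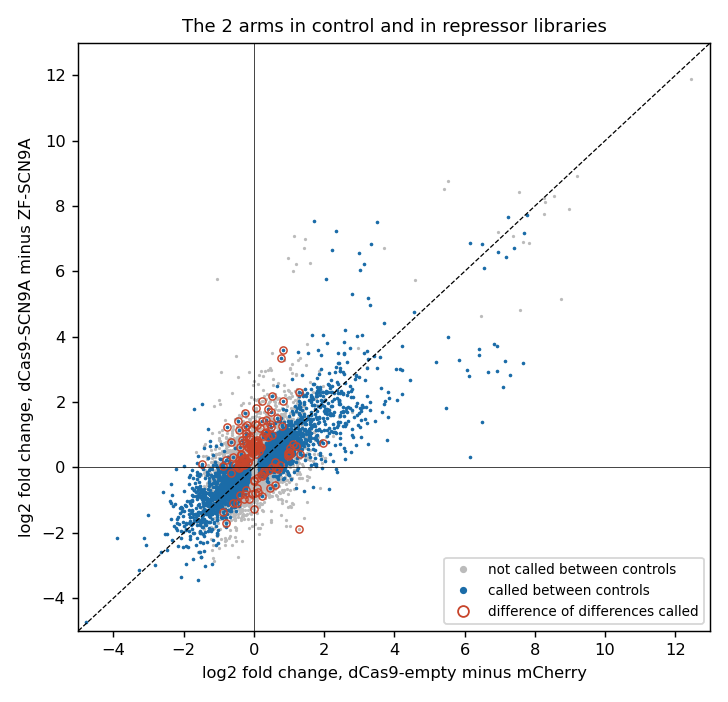
Each point is a gene tested in both comparisons (14748 in all), with the log2 fold change of dCas9-empty minus mCherry across and that of dCas9-SCN9A minus ZF-SCN9A up; filled colours mark genes called between controls and open rings the 143 genes whose differences differed. Most points lie along the dashed line of equal change, and far to the upper right are genes with few or no counts in the mCherry and ZF-SCN9A libraries, whose fitted fold change depends on the prior count.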

How the data were processed

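RNA was extracted and libraries were made and sequenced by the authors with RNeasy, NEBNext Ultra II and NovaSeq, per the labels' protocols. The deposited values are whole-number counts of reads per gene, laid out as STAR writes them. STAR 2.7.3a, bcl2fastq 2.20, DESeq2 and GRCm38 are named in the submitters' processing notes. The unstranded column was used. Entries that name no gene took 26.1% (dCas9-empty) and 25.8% (mCherry) of the reads listed and were left out of library sizes and tests. No source used here gives the annotation release behind the deposited counts. Groups came from the sample labels. Gene symbols, types and positions came from a GENCODE reference annotation by gene ID, and 260 of the 55401 had no symbol there. Promoters were matched to the RefSeq promoter table by symbol.

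The main test was edgeR 4.0.16 (R 4.3.3) quasi-likelihood with TMM scaling, filterByExpr by group, robust fitting and Benjamini-Hochberg adjustment, called at 0.05, two-sided, on the 5 control libraries. The repressor groups had their own fit, and the difference of differences was fitted over 10 libraries. DESeq2 1.42.0 and limma 3.58.1 (voom) were alternatives, with other scalings, filters and strand columns, thinning, an exon-length offset, a replicate block and each replicate left out. All 3 tests were run on simulated counts, drawn independently for each library at a fixed spread. Such counts cannot show how the tests behave when libraries of a group share an effect. TPM used union exon length from the reference annotation, and shared exon bases came from bedtools 2.31.1.

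Genes were named by rule: the 12 largest changes per direction at 5 CPM or more with no overlap of groups, the 6 smallest p per direction, the 15 highest TPM, the 3 largest called changes per list and direction, and Scn9a. Other genes were picked after their values were seen, and some genes are not reported here. The members and gene lists were chosen with earlier results of these data known. Counting error limits low genes, since 1 CPM is only about 7 reads in the mCherry libraries.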

Additional observations from a re-analysis of the deposited data

Results flagged for a closer look

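For 5 genes named by rule, the difference between the controls differed from that between the repressor groups by the test of the difference itself (edgeR, 10 libraries). The log2 fold change of Ankrd37 was 1.96 between controls and 0.76 between repressor groups, a difference of 1.19 (adjusted p = 0.00579). For Tgfb1 the values were 1.29 and 2.31, a difference of -1.03 (adjusted p = 0.00691), and for Acta2 -0.78 and -1.70, a difference of 0.91 (adjusted p = 0.0407). Smaller differences were found for Ret, 0.42 (adjusted p = 0.026), and Dusp4, 0.38 (adjusted p = 0.021), both higher in the dCas9 libraries in each comparison. All 5 genes kept the same sign in both.

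Plasmid entries also had counts in libraries whose label names another plasmid. The zinc-finger entry had 35 counts in mCherry replicate 1 and 14 in mCherry replicate 2, or 5.31 and 1.87 per 1000000 gene counts. The mCherry entry had 59 and 11 counts in the ZF-SCN9A libraries, 7 in dCas9-empty replicate 1 and 9 in dCas9-SCN9A replicate 1. The source of these counts was not tested.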

How the results depend on the processing

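The controls gave 3585 to 5705 calls when each library was left out, 1986 to 2977 higher and 1599 to 2728 lower, with the fewest without mCherry replicate 1; the mCherry group is then 1 library, assumed to vary like the others. Tested against a fold of 1.5, 551 were called, 365 higher and 186 lower. Library totals alone gave 2199 higher and 3801 lower, and no filter 3327 and 2176 (60.5% of calls higher, against 54.0%). The repressor comparison gave 3130 to 4769 calls without single libraries, 1722 to 2545 higher and 1408 to 2246 lower, and 1737 and 1463 without ZF-SCN9A replicate 2. The difference of differences gave 274 with no filter, 117 higher and 157 lower, against 143. The cause of these shifts was not tested. Of the named genes called, Mif alone turned, from 0.23 to -0.068 with the exon-length offset (adjusted p = 0.43). With a replicate block 6385 were called, 3377 higher and 3008 lower. In that fit dCas9-empty replicate 3 has a term of its own, since mCherry has no replicate 3. Same-numbered libraries had deviations correlated at 0.12 and 0.20, over 2 pairs that share only a number. The deviations of the 2 mCherry libraries mirror each other, so these values are not independent. Of all 5674 calls, 98.9% kept direction and call with DESeq2 size factors, 96.6% with the block and 92.8% with voom. The share was 84.3% thinned and 76.0% with the DESeq2 test. Many named genes were picked for small p or large change here, so their agreement is partly built in. Tested against a fold of 1.5, 64 of them stayed called. Of 183 named genes called, 183 kept direction and call with DESeq2 size factors, 181 with the block, 179 with voom, 169 with the DESeq2 test, 163 thinned, 154 without mCherry replicate 2 and 142 without mCherry replicate 1.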

Other observations

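The ratio of dCCas9 to dNCas9 counts was 1.66 ± 0.09 in dCas9-empty (SD, n = 3) and 3.23 ± 0.02 in dCas9-SCN9A (SD, n = 3), with no overlap between the groups. Col3a1, a fibroblast collagen, stood at 3.84 CPM in dCas9-empty replicate 1, 0.0543 CPM in replicate 2 and 0 in replicate 3, and at 0.437 and 1.03 CPM in mCherry. For comparison with the list counts that follow, 20.2% of all tested genes were called higher and 17.2% lower. Cholinergic genes had 1 of 8 called higher and 2 lower, 4 lower with library totals alone, none higher and 1 lower without mCherry replicate 1, and 1 lower without mCherry replicate 2. Of 31 tested small nucleolar RNAs none was called higher by edgeR and 5 were called lower (16.1%, near the share of all tested genes). The lower count was 2, with 1 higher, without mCherry replicate 1, 3 without mCherry replicate 2 or dCas9-empty replicate 2, and 10 with the exon-length offset. Without dCas9-empty replicate 1 their median changed sign from -0.16 to 0.15, and without mCherry replicate 1 to 0.06. Of 19 histone genes 4 were called higher and 1 lower, or 2 and 2 without mCherry replicate 1, 3 and 3 without dCas9-empty replicate 3, and 3 and 4 with the exon-length offset.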
